A study of Mus musculus with 4 samples.

Results

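Complement and coagulation genes of the liver were read on 4 Affymetrix gene arrays of mouse liver RNA, as 33 genes of the 22180 measured. The list held 38 symbols, 33 of which had a probe set annotated to that symbol alone, and each of the 33 had 1 probe set. C1s and C5 are annotated under the symbols C1s1 and Hc, so both are given beside the 33 but left out of every count. Masp2 and Klkb1 share their probe sets with Tardbp and Cyp4v3, so no value is given for either. No probe set carried the symbol C3 in the annotation used, alone or shared, so C3 could not be read. All 33 lay above the limit for dim genes, a mean log2 value of 3.47, and the dimmest of them had a mean of 5.96.

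The samples were total liver RNA of C57Bl6 mice aged 16 weeks, with 1 array for each combination of genotype and diet. Knockout mice (ALB Cre MyD88 lox/lox) carried floxed MyD88 together with Cre under the albumin promoter, which is active in hepatocytes, and wild-type mice (MyD88 lox/lox) carried the floxed gene without Cre, so all 4 groups share the floxed allele. The groups were knockout on high-fat diet, wild type on high-fat diet, knockout on control diet and wild type on control diet, with 60% fat in the high-fat diet and 9.4% in the control diet. RNA of 4 to 5 mice, selected for RNA quality, was pooled for each array. There was no replicate of any group, the spread between mice was not measured, and differences between 2 arrays below carry no p-value.

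Complement is a cascade of plasma proteins that marks and lyses microbes. It is started by the C1 complex on antibody (classical pathway), by mannose-binding lectins on sugars (lectin pathway) or by spontaneous turnover with factor B (alternative pathway), and it ends with a pore built by the terminal components. Coagulation factors are likewise made mainly by hepatocytes as inactive precursors, and several complement and coagulation proteins are acute phase proteins, whose synthesis changes when inflammatory cytokines reach the liver. MyD88 is the adaptor through which Toll-like receptors and interleukin-1 receptors signal.

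The values are log2 expression per probe set, so a difference of 1 is a 2-fold difference. The array medians lay between 3.53 and 3.56, and Pearson's r across all probe sets was between 0.985 and 0.990 for each pair of arrays. The targeted gene Myd88 read 6.23 in knockout and 6.44 in wild type on high-fat diet, and 5.91 in knockout and 6.10 in wild type on control diet. Whether its probes lie in the deleted exons was not analysed here, and liver cells other than hepatocytes keep the gene. The linear values of the 8 hepatocyte markers summed to 52610 to 53599 on the 4 arrays. That sum is weighted to bright markers such as Cyp2e1, at 12.99 to 13.23, and says little of dim ones such as Ass1, at 5.80 to 6.11. In whole liver RNA, fewer cells of a type and less RNA per cell cannot be told apart.

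Most members differed little, and C4a, F11, C1ra, C2, F13b, Mbl2 and C4b were those with ranges over the 4 arrays of at least 0.50. C4a had by far the widest range of the 33, 2.61, followed by F11 with 0.92 and C1ra with 0.85. C4a is annotated as a transcribed pseudogene, and its probe set may read C4b transcripts (described below). The counts below that include C4a are uncertain to that extent. The wild-type array on control diet was the lowest of the 4 for 18 of 33 members, against 22.9% of all 13308 genes above the limit, and the wild-type array on high-fat diet was the highest for 13, against 20.7%. The knockout array on high-fat diet was the lowest for 10 members, against 26.6% of all genes. The array of wild-type mice on control diet is subtracted in the comparison of genotypes on control diet and again in that of diets in wild type, and these comparisons are therefore not independent.

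**Figure D1:**
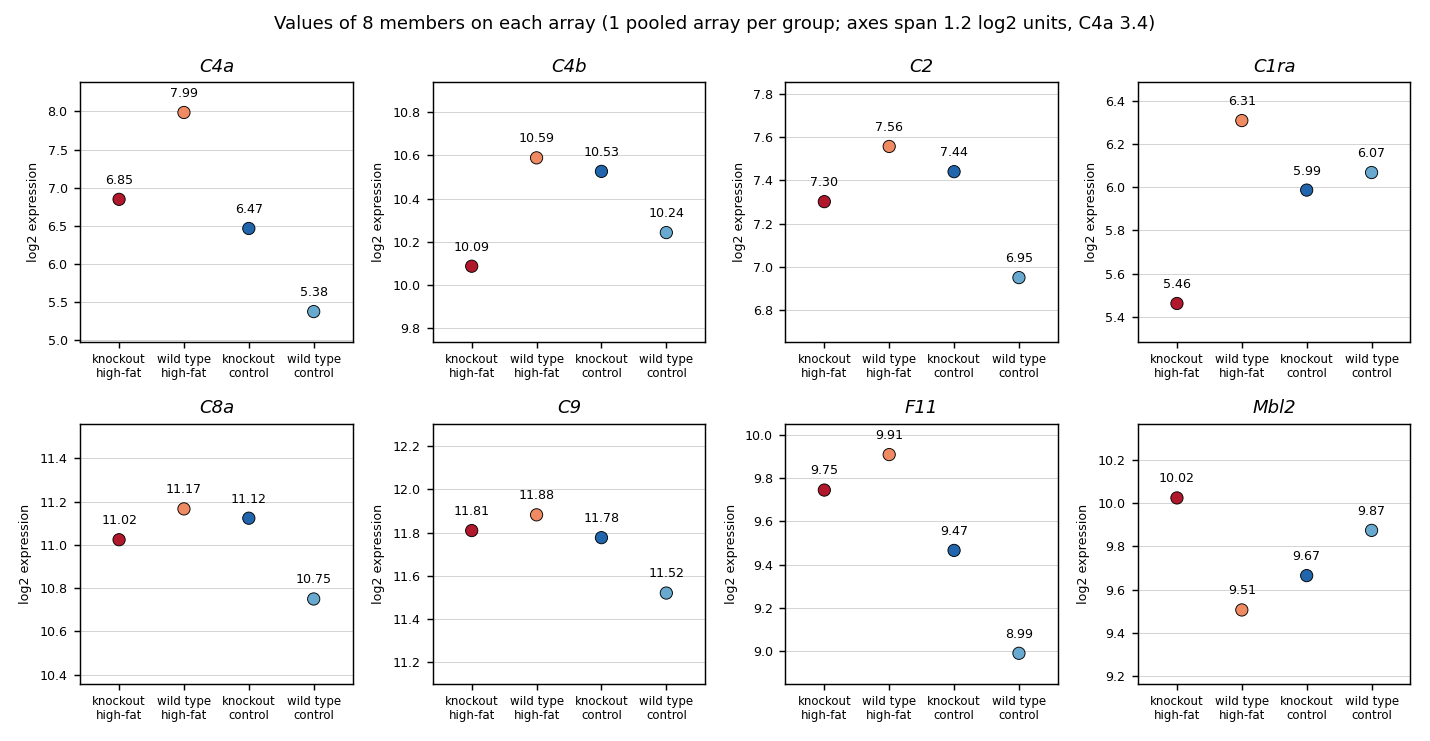
Log2 expression (vertical axes) of 8 members on each array, with 1 point per pooled array and groups along the horizontal axes; each axis spans 1.2 log2 units except that of C4a, which spans 3.4. C4a runs between 5.38 and 7.99, while C8a, C9, F11 and C2 are lowest on the wild-type control array.

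With loss of Myd88 in hepatocytes, members were mostly lower on high-fat diet and mostly higher on control diet. On high-fat diet 23 of 33 were lower in knockout than in wild type, against 45.9% of all genes, and the members' median difference was -0.07, against 0.02 over all genes. C4a and C1ra were at least 1.5-fold lower (1.01% of all genes) and 0 members were that much higher (2.1%), while at 1.2-fold 3 were lower (10.5%) and 1, Mbl2, was higher (15.9%). On control diet 24 of 33 were higher in knockout, against 46.6% of all genes, with a median of 0.12 against -0.02. C4a alone was at least 1.5-fold higher (0.902%) and 0 were that much lower (0.864%), and at 1.2-fold 7 were higher (7.68%) and 0 lower (10.2%).

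With high-fat diet, members of knockout mice had no common direction and those of wild-type mice were mostly higher. In knockout 20 of 33 were lower on high-fat than on control diet, against 47.7% of all genes, and the median was -0.03 against 0.01 over all genes. There 0 members reached 1.5-fold in either direction, where 2.28% of all genes were higher and 1.72% lower, and at 1.2-fold 4 were higher and 3 lower, where the shares of all genes were 15.5% and 12.7%. In wild type 25 of 33 were higher on high-fat diet, against 44.9% of all genes, with a median of 0.13 against -0.03. C4a, F11 and C2 were at least 1.5-fold higher, or 3 of 33 against 1.68% of all genes, and 0 were that much lower, against 2.52%. At 1.2-fold 9 were higher (10.8%) and 1, Mbl2, was lower (15.3%). C4a was also the only member past 2-fold, lower in knockout on high-fat diet (0.165% of all genes), higher in knockout on control diet (0.346%) and higher on high-fat diet in wild type (0.488%).

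**Figure D2:**
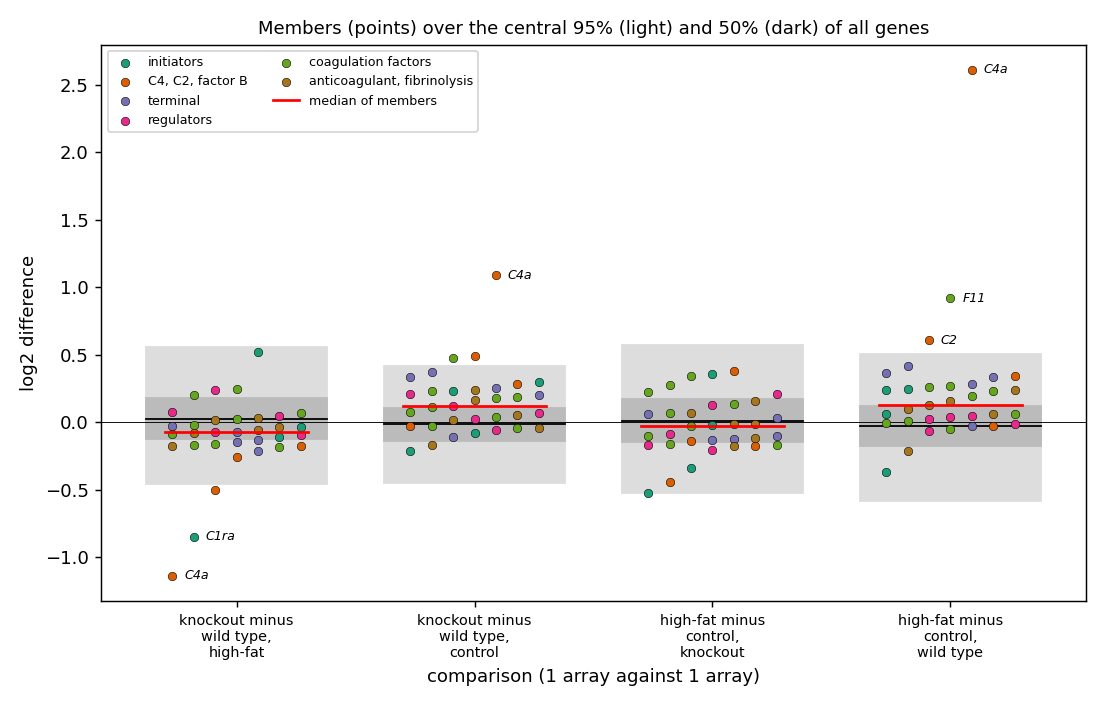
Log2 difference (vertical axis) of each member in the 4 comparisons (horizontal axis), as points coloured by role, over bands that hold the central 95% and 50% of the 13308 genes, with the black line at the median of all genes and the red line at the median of members. C4a, F11, C2 and C1ra are the labelled points past 1.5-fold, and the red lines stand at 0.12 for genotype on control diet and 0.13 for diet in wild type.

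The initiators of the cascade did not share a direction. C1ra encodes the C1r protease of the C1 complex, and had log2 values of 5.46 in knockout and 6.31 in wild type on high-fat diet, and of 5.99 in knockout and 6.07 in wild type on control diet. It was low on the knockout high-fat array alone. The difference between genotypes was -0.85 on high-fat diet, where 37 of the 13308 genes were lower still, and -0.08 on control diet.

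C1s1 encodes C1s, the protease that C1r activates, and its gene neighbours C1ra on chromosome 6. Its brighter probe set read 4.69 in knockout and 5.60 in wild type on high-fat diet, and 5.33 in knockout and 5.32 in wild type on control diet, so it was low on the same array as C1ra, with a genotype difference of -0.91 on high-fat diet. A further C1s1 probe set disagreed, with 4.59 in knockout and 4.36 in wild type on high-fat diet and 4.56 in knockout and 5.00 in wild type on control diet, so no direction is given for this gene. C1rb, a near copy of C1ra beyond C1s1, differed by -0.57 between genotypes on high-fat diet and by 0.46 on control diet, and probes of such copies can read each other's transcripts.

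The mannose-binding lectins went different ways. Mbl2 had values of 10.02 in knockout and 9.51 in wild type on high-fat diet, and of 9.67 in knockout and 9.87 in wild type on control diet. It was the only member at least 1.2-fold higher in knockout on high-fat diet, by 0.52, and its diet difference was 0.36 in knockout and -0.37 in wild type. Mbl1 encodes the other mouse mannose-binding lectin and had 8.66 in knockout and 8.76 in wild type on high-fat diet, and 8.998 in knockout and 8.70 in wild type on control diet. It was thus highest on the knockout control array, and its diet difference was -0.34 in knockout and 0.07 in wild type. Masp1 encodes a lectin-bound protease; it read 9.28 in wild type on control diet and between 9.49 and 9.52 on the other arrays.

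Among the genes grouped with the C3 convertases, C4a showed the widest range, against 0.50 for C4b. C4a (probe set 17343976) had values of 6.85 in knockout and 7.99 in wild type on high-fat diet, and of 6.47 in knockout and 5.38 in wild type on control diet. High-fat diet went with a difference of 0.38 in knockout and 2.61 in wild type, and the genotype difference was -1.14 on high-fat diet and 1.09 on control diet, so the order of the genotypes was opposite on the 2 diets. The gene C4a, also called Slp for sex-limited protein, is annotated by RefSeq as a transcribed pseudogene in the C57BL/6J reference. It is a near copy of C4b, the functional complement C4 gene, with Cyp21a1 between them on chromosome 17, and its probe set may read transcripts of either, so its value is uncertain.

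C4b (probe set 17343918) had values of 10.09 in knockout and 10.59 in wild type on high-fat diet, and of 10.53 in knockout and 10.24 in wild type on control diet. The knockout high-fat and wild-type control arrays were the low pair. Its genotype difference was -0.50 on high-fat diet and 0.28 on control diet, and its diet difference was -0.44 in knockout and 0.35 in wild type, so it shared C4a's order of genotypes on each diet at a smaller size, but was lower on high-fat diet in knockout, where C4a was higher.

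C2 encodes the protease that pairs with C4 fragment in the classical and lectin convertase. C2 had 7.30 in knockout and 7.56 in wild type on high-fat diet, and 7.44 in knockout and 6.95 in wild type on control diet. The wild-type control array was the low one. With diet C2 differed by -0.14 in knockout and 0.61 in wild type. Between genotypes it differed by -0.26 on high-fat diet and 0.49 on control diet. Cfb encodes factor B, the counterpart of C2 in the alternative pathway, and its gene neighbours C2 on chromosome 17. Cfb did not share C2's pattern: it read 10.93 in knockout on high-fat diet and between 11.11 and 11.13 on the other arrays. Hc, which encodes C5, read 11.96 in knockout and 12.06 in wild type on high-fat diet, and 12.08 in knockout and 11.83 in wild type on control diet, and was lowest, like C2, on the wild-type control array.

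**Figure D3:**
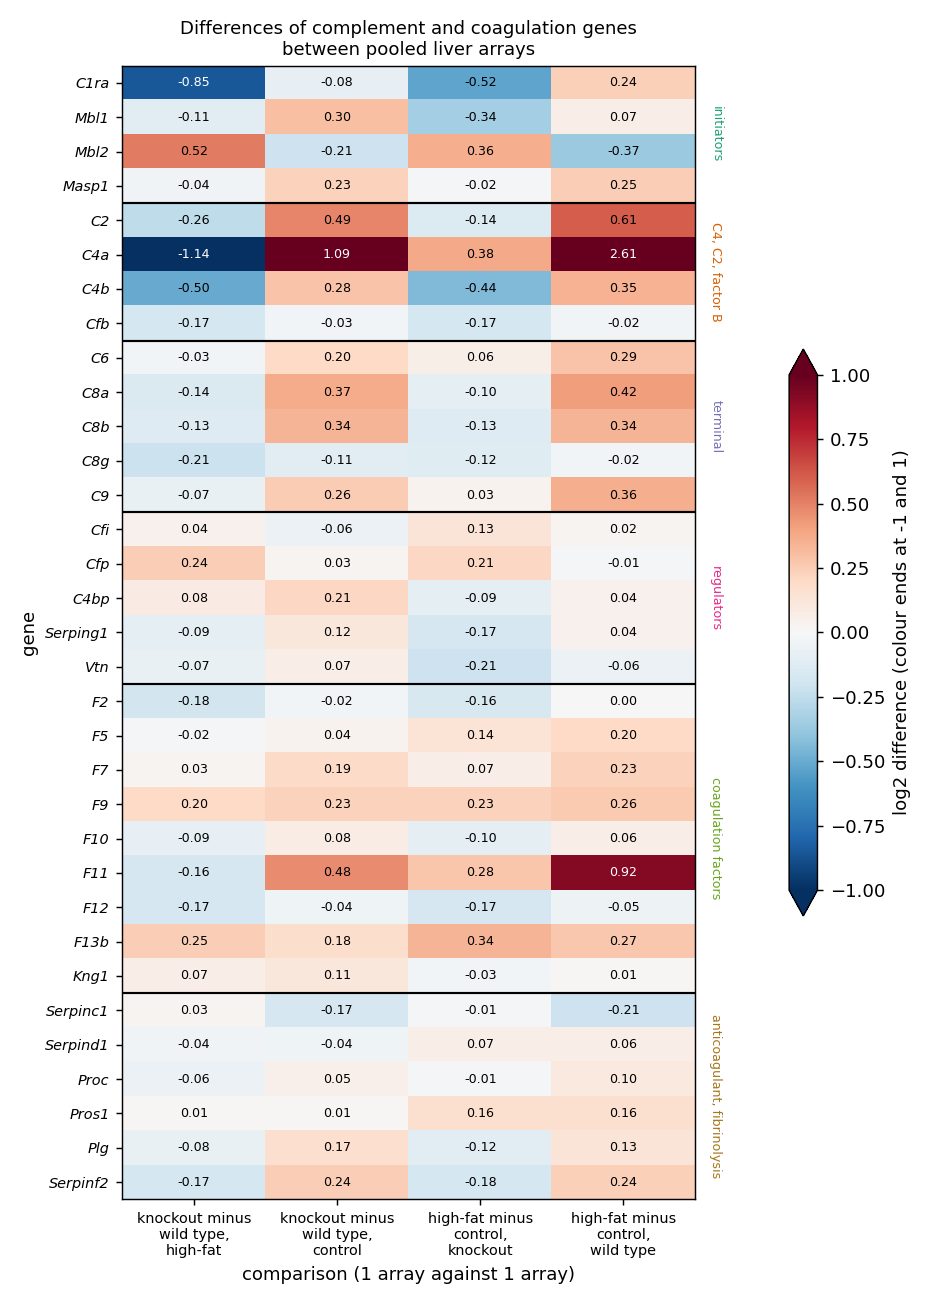
Log2 differences of the 33 members (rows, grouped by role) in the 4 comparisons of 1 array with 1 array (columns), with the value printed in each cell and colours that end at -1 and 1. C4a is the darkest row, and the terminal components C6, C8a, C8b and C9 are positive in both columns that subtract the wild-type control array.

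The terminal components form the membrane pore. Of the 5 measured, C6, C8a, C8b and C9 were lowest on the wild-type control array and highest on the wild-type high-fat array. C8a had 11.02 in knockout and 11.17 in wild type on high-fat diet, and 11.12 in knockout and 10.75 in wild type on control diet. C8b, its neighbour on chromosome 4, had 11.53 in knockout and 11.66 in wild type on high-fat diet, and 11.66 in knockout and 11.32 in wild type on control diet. These 2 genes, which encode the alpha and beta chains of C8, therefore had nearly the same steps: the knockout exceeded wild type on control diet by 0.37 for C8a and 0.34 for C8b, and in wild type high-fat diet exceeded control diet by 0.42 for C8a and 0.34 for C8b.

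C9, the subunit that polymerises into the pore, had 11.81 in knockout and 11.88 in wild type on high-fat diet, and 11.78 in knockout and 11.52 in wild type on control diet. C6, which binds the growing complex before C8, had 10.40 in knockout and 10.42 in wild type on high-fat diet, and 10.34 in knockout and 10.14 in wild type on control diet. For these 4 genes the knockout arrays and the wild-type high-fat array lay close together, with diet differences in knockout between -0.13 and 0.06 and genotype differences on high-fat diet between -0.14 and -0.03. C8g, the gamma chain of C8, is made from a gene on chromosome 2 and did not share the step: it read 10.49 in knockout and 10.70 in wild type on high-fat diet, and 10.61 in knockout and 10.72 in wild type on control diet.

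The sequences before the starts of C6, C8a, C8b, C9 and F11 are shown as examples of genes lowest on the wild-type control array (F11 is described with the coagulation factors). That trait is not particular to these 5, since 18 of 33 members were lowest there, C4a and C2 among them. Promoters of C4a and C2 were not among those matched. They are the 250 bases before each RefSeq gene start in build GRCm38.p6, written along the gene's own strand, at chr15:4726960-4727209 on the plus strand, chr4:104876399-104876648 on the minus strand, chr4:104766067-104766316 on the plus strand, chr15:6445096-6445345 on the plus strand and chr8:45262032-45262281 on the minus strand. Capitals mark matches to a motif.
C6: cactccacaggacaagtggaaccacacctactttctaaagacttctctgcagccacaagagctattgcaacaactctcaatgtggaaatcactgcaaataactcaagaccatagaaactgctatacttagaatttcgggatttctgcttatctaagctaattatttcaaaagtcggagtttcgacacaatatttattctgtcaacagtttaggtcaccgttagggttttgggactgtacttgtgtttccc
C8a: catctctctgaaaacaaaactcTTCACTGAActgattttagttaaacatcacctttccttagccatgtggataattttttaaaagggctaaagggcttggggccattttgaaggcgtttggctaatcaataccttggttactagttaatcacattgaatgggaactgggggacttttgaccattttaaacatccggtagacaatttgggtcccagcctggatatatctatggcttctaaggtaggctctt
C8b: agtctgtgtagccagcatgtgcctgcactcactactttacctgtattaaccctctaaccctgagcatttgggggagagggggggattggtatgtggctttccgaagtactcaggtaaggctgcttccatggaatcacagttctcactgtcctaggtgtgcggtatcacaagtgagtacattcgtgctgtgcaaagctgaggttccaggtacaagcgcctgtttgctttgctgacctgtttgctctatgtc
C9: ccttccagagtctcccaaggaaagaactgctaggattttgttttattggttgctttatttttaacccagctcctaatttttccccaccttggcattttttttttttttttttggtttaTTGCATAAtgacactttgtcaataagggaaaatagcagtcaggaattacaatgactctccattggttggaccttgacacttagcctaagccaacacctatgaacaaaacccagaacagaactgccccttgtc
F11: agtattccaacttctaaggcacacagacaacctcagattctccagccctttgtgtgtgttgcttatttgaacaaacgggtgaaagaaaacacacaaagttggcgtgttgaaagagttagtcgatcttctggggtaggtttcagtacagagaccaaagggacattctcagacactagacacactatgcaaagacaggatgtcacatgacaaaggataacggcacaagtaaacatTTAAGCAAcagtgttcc
Motifs were searched on both strands in the same 250 bases of 32851 promoters, 24 of them of 23 members. The letters TTCNNNGAA, bound by STAT factors, were found in 3 of the 24 (C8a, F9 and Pros1), or 12.5% against 7.02% of all promoters, and the stricter TTCCNGGAA, which overlaps it, in Pros1 (0.913% of all). The C/EBP letters TTGCNNAA were found in C9, F11 and F9, again 12.5%, against 9.56% of all promoters. The NF-kappaB motif was found in 0 of 24 (0.356% of all promoters) and the HNF1 motif in C4bp (0.0548% of all). A match is a description of these letters and not a binding site.

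The 5 regulators of complement ranged over 0.13 to 0.24 across the arrays. C4bp encodes the C4b-binding protein that dissolves the classical convertase, and had 11.43 in knockout and 11.35 in wild type on high-fat diet, and 11.51 in knockout and 11.31 in wild type on control diet. Vtn encodes vitronectin, which blocks insertion of the terminal complex, and read 12.17 in knockout and 12.25 in wild type on high-fat diet, and 12.38 in knockout and 12.31 in wild type on control diet. Both were highest on the knockout control array. Serping1, the gene of the C1 inhibitor, ranged over 0.17 and Cfi, the gene of factor I that cleaves C3b and C4b, over 0.13. Cfp encodes properdin, which stabilises the alternative convertase and is made mainly by myeloid cells. Cfp read 6.69 in knockout and 6.44 in wild type on high-fat diet, and 6.48 in knockout and 6.45 in wild type on control diet, so that it was high on the knockout high-fat array alone. None of the 5 regulators reached 1.2-fold in any comparison.

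Of the 9 coagulation factor genes measured, F11 varied most. F11 encodes factor XI of the contact-initiated pathway and had 9.75 in knockout and 9.91 in wild type on high-fat diet, and 9.47 in knockout and 8.99 in wild type on control diet. Both high-fat arrays lay above both control arrays. The diet difference was 0.28 in knockout and 0.92 in wild type, and the genotype difference was -0.16 on high-fat diet and 0.48 on control diet. Its neighbour on chromosome 8 is Klkb1, whose probe set could not be assigned.

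Both high-fat arrays lay above both control arrays for 11 of 33 members (C4a, C6, C9, Cfi, F5, F7, F9, F11, F13b, Serpind1 and Pros1), against 19.1% of all genes, and below them for 3 (Vtn, F12 and Serpinc1), against 21.2%. No smallest gap was required, and some gaps were tiny. Cfi read 11.785 in wild type on high-fat diet and 11.760 in wild type on control diet. F12 read 10.884 in wild type on high-fat diet and 10.888 in knockout on control diet. F13b encodes the carrier subunit of the fibrin-linking factor XIII, and had 10.12 in knockout and 9.87 in wild type on high-fat diet, and 9.78 in knockout and 9.60 in wild type on control diet. F9, the X-linked gene of factor IX, whose human counterpart is defective in haemophilia B, had 11.29 in knockout and 11.09 in wild type on high-fat diet, and 11.06 in knockout and 10.83 in wild type on control diet. In both genes the knockout was higher than wild type on each diet, and the diet difference was of like size in the genotypes, 0.34 in knockout and 0.27 in wild type for F13b and 0.23 and 0.26 for F9.

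F5, the gene of the cofactor of factor X, had diet differences of 0.14 in knockout and 0.20 in wild type, and F7, which starts the tissue factor pathway, of 0.07 and 0.23. F10, the neighbour of F7 on chromosome 8 and the source of the protease that cleaves prothrombin, ranged over 0.10. F2, the prothrombin gene, read 11.39 in knockout on high-fat diet and between 11.56 and 11.58 on the other arrays. F12, the gene of the contact factor XII, read 10.72 in knockout on high-fat diet and between 10.88 and 10.93 on the other arrays. F2 and F12 were therefore lowest, like Cfb, on the knockout high-fat array, by less than 1.2-fold. Kng1, the gene of kininogen, from which bradykinin is cut, ranged over 0.11.

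Anticoagulant and fibrinolytic genes stayed within 1.2-fold in every comparison, for each of the 6 measured. Serpinc1 encodes antithrombin, and had 11.94 in knockout and 11.91 in wild type on high-fat diet, and 11.96 in knockout and 12.12 in wild type on control diet, the highest value being that of the wild-type control array. Serpinf2, the gene of the plasmin inhibitor alpha-2-antiplasmin, had 10.63 in knockout and 10.80 in wild type on high-fat diet, and 10.81 in knockout and 10.57 in wild type on control diet, with diet differences of -0.18 in knockout and 0.24 in wild type. Plg, the plasminogen gene, had diet differences of -0.12 in knockout and 0.13 in wild type. Pros1, the gene of protein S, was higher on high-fat diet by 0.16 in each genotype. Proc, the gene of protein C, ranged over 0.10 and Serpind1, the gene of heparin cofactor II, over 0.11.

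An additive fit with limma over all 4 arrays estimated an effect of diet shared by the genotypes and an effect of genotype shared by the diets. Its error is the diet by genotype difference, with 1 residual degree of freedom and a prior shared over genes, so a gene that differs with diet in 1 genotype has a large error. At a Benjamini-Hochberg adjusted p of 0.05, 0 of 33 members passed for diet and 0 for genotype, as did 0% of all genes. At an unadjusted p under 0.05 limma had 3 members for diet, all higher, against 9.3% of all genes, and 0 for genotype, against 4.26%. The 3 were F11, with a log2 diet effect of 0.60 (SE 0.18, adjusted p = 0.43 in limma), C4a, with 1.496 (SE 0.48, adjusted p = 0.45), and F13b, with 0.30 (SE 0.12, adjusted p = 0.53). Among the genotype effects, C1ra had the lowest, -0.46 (SE 0.20), and F9 and F13b the highest, 0.22 (SE 0.12) and 0.21 (SE 0.12).

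**Figure D4:**
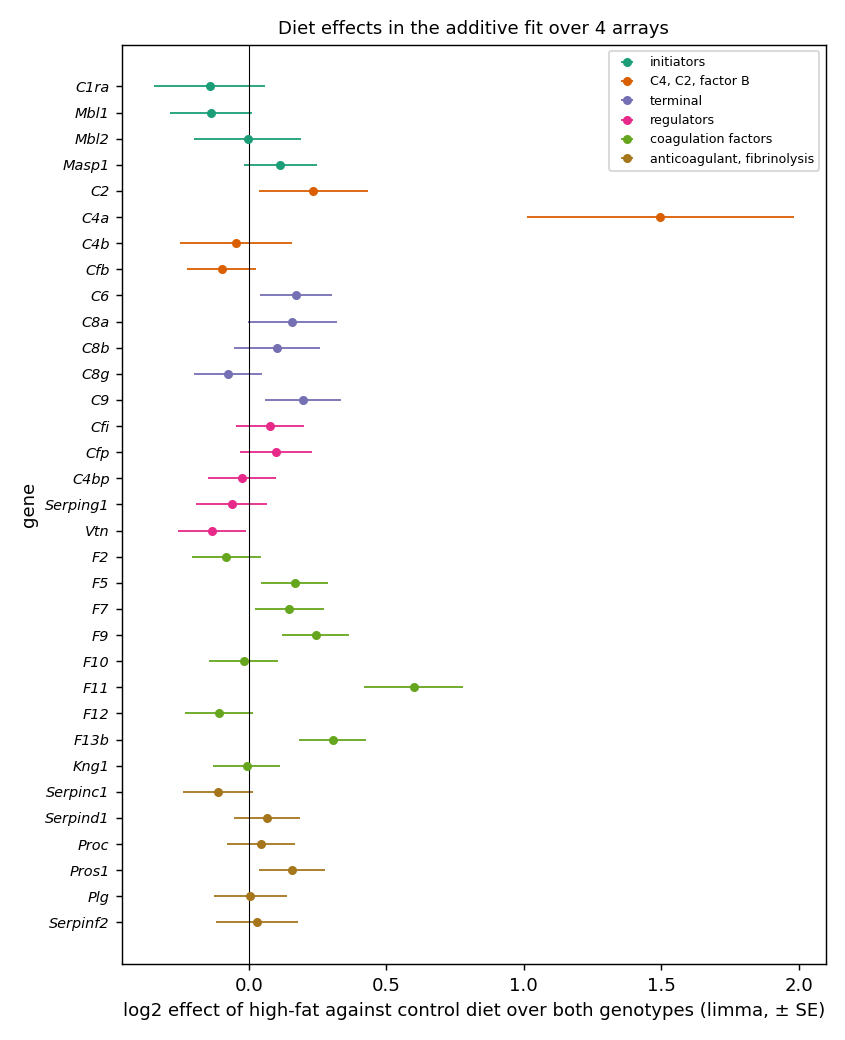
Log2 effect of high-fat against control diet over both genotypes for the 33 members (rows), as points with the standard error of the additive limma fit (bars), coloured by role. C4a at 1.496 has the widest bar, F11 lies at 0.60 and F13b at 0.30, and none of the 33 passed the adjusted test.

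How the diet difference depended on genotype was given by subtraction, knockout minus wild type, and has no test. It was -2.23 for C4a, -0.78 for C4b, -0.76 for C1ra, -0.75 for C2 and -0.64 for F11, and 0.73 for Mbl2. For C8a it was -0.52 and for C8b -0.47. Pros1 and Serpind1 had values of 0.00 and 0.01, with like diet differences in the genotypes.

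Other genes of both systems were read from separate lists. Of 23 further complement genes above the limit for dim genes, 14 were higher on high-fat diet and 9 lower in knockout, with a median of 0.06, and 9 higher and 14 lower in wild type, with a median of -0.07. C1qa, a chain of C1q that macrophages make, read 6.76 in knockout and 6.80 in wild type on high-fat diet, and 7.40 in knockout and 7.22 in wild type on control diet. Colec10, a liver collectin, differed between high-fat and control diet by -0.06 in knockout and -0.52 in wild type, and Cd59a, which blocks C9 on cell surfaces, by 0.50 in knockout and 0.14 in wild type. None of these 23 passed limma's adjusted test, for which the calls over all genes numbered 0.

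Of 27 further coagulation genes above that limit, 12 were higher on high-fat diet and 15 lower in knockout, with a median of -0.02, and 17 higher and 10 lower in wild type, with a median of 0.05. Serpina10, which encodes the inhibitor of factor Xa that acts with protein Z, read 10.35 in knockout and 10.50 in wild type on high-fat diet, and 10.75 in knockout and 10.03 in wild type on control diet. Serpina10 was lowest on the wild-type control array, as were 11 of the 27 in all (22.9% of all genes), and highest on the knockout control array. Its genotype difference was 0.71 on control diet. Gas6, a ligand related to protein S, differed with diet by -0.28 in knockout and -0.79 in wild type.

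Other marker lists differed between the same arrays, and their part in the values above was not tested. All 19 acute phase genes measured were higher in knockout than in wild type on control diet, against 46.6% of all genes. Their median was 0.51. In wild type 16 of 19 were higher on high-fat diet, against 44.9% of all genes, with a median of 0.37. Saa2, a serum amyloid gene with near copies, read 10.83 in knockout and 10.73 in wild type on high-fat diet, and 12.34 in knockout and 4.97 in wild type on control diet. The wild-type control array was the lowest of the 4 for 16 of the 19 (22.9% of all genes), the others being Apcs, Cp and Cd14. In knockout 15 of 19 were lower on high-fat diet (47.7% of all genes), with a median of -0.35. The linear values of the list summed to 42692 in knockout and 41966 in wild type on high-fat diet, and to 53829 in knockout and 30960 in wild type on control diet.

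Skeletal muscle markers were highest on the wild-type high-fat array. That array was also the highest for 13 of 33 members, C4a, C4b, C2 and C1ra among them, against 20.7% of all genes. C4a, C4b, C2 and C1ra read 7.99, 10.59, 7.56 and 6.31 there. The next highest values were 10.53 for C4b and 7.44 for C2, both in knockout on control diet. For C4a it was 6.85 in knockout on high-fat diet, and for C1ra 6.07 in wild type on control diet. The part of skeletal muscle markers in these values was not tested. Of 5 such markers above the limit, 5 were lower in knockout on high-fat diet, with a median of -1.37, and their list of 6 summed to 78.2 in knockout and 223 in wild type on high-fat diet, and to 89.0 in knockout and 97.9 in wild type on control diet. All 12 exocrine pancreas markers were lowest on the wild-type control array, with sums of 7239 in knockout and 3107 in wild type on high-fat diet, and of 3452 in knockout and 643 in wild type on control diet. The 8 Kupffer cell and macrophage markers summed to 1507 in knockout and 1523 in wild type on high-fat diet, and to 1549 in knockout and 1682 in wild type on control diet. Of these 8, 5 were highest on the wild-type control array. On control diet 7 of 8 were lower in knockout than in wild type, with a median of -0.18 and Marco at -0.81 and Adgre1 at -0.64. On high-fat diet 6 of 8 were lower than on control diet in wild type, with a median of -0.21.

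Sex-linked transcripts were read because C4a is known for male-limited expression in some mouse strains. Xist, the transcript of the silenced X chromosome in females, was below the limit on each array, at 3.07 to 3.23. Of the Y-linked genes, Eif2s3y lay between 7.67 and 8.23 and was lowest on the knockout control array. Uty had 7.30 in knockout and 6.63 in wild type on high-fat diet, and 6.70 in knockout and 6.38 in wild type on control diet, and Kdm5d had 5.67 in knockout and 5.25 in wild type on high-fat diet, and 5.36 in knockout and 4.82 in wild type on control diet. Uty and Kdm5d were lowest on the wild-type control array.

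Of 10 liver genes known to differ between the sexes, 5 were highest and 2 lowest on the wild-type control array. The list mixes genes higher in female and in male liver. The 5 included both Cyp2b9 and Elovl3, so the count has no direction, and the share over all genes is not given here. Cyp2b9, a cytochrome gene that is higher in female liver, had 8.60 in knockout and 7.61 in wild type on high-fat diet, and 5.28 in knockout and 9.05 in wild type on control diet. Elovl3, a fatty acid elongase gene that is higher in male liver, had 10.81 in knockout and 10.44 in wild type on high-fat diet, and 11.62 in knockout and 11.92 in wild type on control diet. The part of these genes in the members' values was not tested.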

How the data were processed

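Liver RNA of 4 pooled groups was measured on 1 array each. The deposited values are log2 expression of each probe set, which the authors made with RMA. Affymetrix Expression Console is the software named, per the submitters' processing notes. RMA subtracts background, equalises the arrays' distributions and combines probes, which compresses differences of dim probe sets. Version and genome build were not given in the sources used here, and background calls and scan batches were not analysed here, so signal over background is unknown.

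Of 41345 probe sets, the 23521 with 1 annotated symbol were used, and each of 22180 genes was read from its brightest probe set. Genes with a mean under the 40th percentile (3.47) were left out, which kept 13308. Groups came from the sample titles. Differences are subtractions of 2 arrays, counted at 1.5-fold, with 1.2-fold and 2-fold beside it, 1.2-fold having been chosen after seeing the data. The additive fit used limma 3.58.1 in R 4.3.3 (genotype and diet as terms, eBayes, Benjamini-Hochberg over all 13308 genes). It was also run on simulated data with a diet effect and no diet by genotype difference. That run is therefore no check for genes whose diet difference depends on genotype, such as C4a. Alternatives were cyclic loess, quantile normalisation, no filter on dim genes and the mean of all probe sets. Python 3.11.15, pandas 2.3.3, NumPy 2.4.6 and matplotlib 3.10.9 were used otherwise.

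Any member could be named, and from each other list up to 4 genes with the widest differences. Members and lists were chosen with earlier results of these data known. Promoters were taken from RefSeq tables of build GRCm38.p6, and 23 of 33 members were matched. With 1 array per group, the number of arrays limits the precision.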

Additional observations from a re-analysis of the deposited data

Results flagged for a closer look

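Members whose 2 differences under the same contrast had opposite signs and were each at least 1.2-fold are given here. With 1 array per group, the difference between them was not tested. C4a differed between knockout and wild type by -1.14 on high-fat diet and by 1.09 on control diet; such opposite genotype differences were found for 402 of the 13308 genes, or 3.02%. C4b differed between the genotypes by -0.50 on high-fat diet and 0.28 on control diet, and between high-fat and control diet by -0.44 in knockout and 0.35 in wild type. Mbl2 did so by 0.36 in knockout and -0.37 in wild type. Opposite diet differences of that size were found for 383 genes, or 2.88%.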

How the results depend on the processing

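The 28 differences of single members that were at least 1.2-fold kept their direction and moved by less than 0.1 log2 after cyclic loess and after quantile normalisation. The counts of members past 1.5-fold and the members' 4 medians were likewise close to those reported after either. Each of the 33 members has 1 probe set and lies above the limit for dim genes. Leaving out the filter or taking the mean of all probe sets therefore could not change any member's value, and neither is a check on the members. The fold decided the counts: at 1.2-fold, members numbered 1 higher and 3 lower for genotype on high-fat diet, 7 higher and 0 lower for genotype on control diet, 4 higher and 3 lower for diet in knockout, and 9 higher and 1 lower for diet in wild type. At 2-fold they numbered 1 lower for genotype on high-fat diet, 1 higher for genotype on control diet and 1 higher for diet in wild type, with 0 in the other directions. After cyclic loess limma called 70 of all genes for diet and 3 for genotype, against 0 and 0 on the deposited values, and the cause was not tested; 0 members were among them. No paired analysis was possible because each group has 1 array. Leaving out an array leaves the limma fit no residual degree of freedom, so no such fit was made. Background correction could not be varied on the deposited values, and differences of dim genes may be understated.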
